A study of Mus musculus with 4 samples.

Results

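Cytosolic ribosomal proteins were followed across 4 Affymetrix arrays of macrophages sorted from the mouse mammary gland. The members were all probe sets that name exactly 1 gene with a symbol of the form Rpl, Rps or Rplp plus a number. They came to 98 of 22690 probe sets, and to 47 of the 12393 genes on the array that a probe set names alone. By subunit these were 24 genes of the large subunit, 21 of the small subunit and 2 of the stalk. The set is not the whole ribosome, since 27 of the 74 matching symbols occur only in probe sets that name several genes at once. Rpl5 and Rplp1 are among the symbols without a probe set of their own. Each gene is represented below by its brightest probe set on average, and the values are log2 expression values as deposited.

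Each of the 4 groups had 1 array. The remodeling macrophages came from mammary glands without tumor, either wild type for Ets2 (remodeling Ets2-expressing) or with both copies of Ets2 deleted (remodeling Ets2-deficient). The tumor macrophages came from early-stage mammary tumors of the PyMT model, in which a polyomavirus oncogene drives breast cancer. The tumor Ets2-deficient array is labelled as having both copies deleted, and the tumor Ets2-expressing array is called wild type in its title but labelled as having 1 copy in its source. All 4 groups consisted of cells sorted for YFP, a fluorescent protein that the labels describe as expressed in macrophages. What drove YFP and the deletion, which exons were removed, the ages and the number of animals behind each RNA sample are not given in the sources used here. Since each group had 1 array, differences were not tested, no p-value is given, and "higher" or "lower" describes these arrays and not the conditions. Where a gene has several probe sets, the standard deviation (SD) between them is the only error at hand, and it covers neither animals nor sorts nor amplification.

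Ribosomal proteins assemble with ribosomal RNA into the small subunit, which decodes the messenger RNA, and the large subunit, which joins amino acids. They are made in matched amounts, and their messenger RNAs are among the most abundant in a cell. Most begin with a short run of pyrimidines directly at the 5' end, the 5' TOP motif, through which mTOR signalling controls their translation together rather than one at a time. Several of their promoters are known to hold sites for ETS-family factors, the family to which Ets2 belongs. Macrophages that grow or divide need new ribosomes.

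Both sequence features can be read in the promoters. The sequences below are from RefSeq (GRCm38.p6), 5' to 3' on the gene's strand, from 60 bases before the annotated start through the first 20 bases transcribed. Capitals mark the pyrimidine run at the start and, where it falls inside the window, the ETS motif CCGGAAG. They are shown for members whose values are described below, for Rps27l at the first of its 2 annotated starts, with Rpl3l, the paralog typical of muscle, as a member that has neither feature.
Rpl38 (chr11:114668520-114668599, plus strand): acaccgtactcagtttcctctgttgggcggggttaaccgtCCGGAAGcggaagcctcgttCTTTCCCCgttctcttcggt
Rps27l (chr9:66946026-66946105, plus strand): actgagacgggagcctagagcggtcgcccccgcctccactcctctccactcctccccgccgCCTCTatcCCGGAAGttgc
Rps6 (chr4:86857348-86857427, minus strand): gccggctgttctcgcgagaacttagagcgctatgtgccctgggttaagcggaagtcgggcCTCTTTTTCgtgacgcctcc
Rpl14 (chr9:120571457-120571536, plus strand): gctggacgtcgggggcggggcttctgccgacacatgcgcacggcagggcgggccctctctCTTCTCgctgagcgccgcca
Rplp2 (chr7:141447591-141447670, plus strand): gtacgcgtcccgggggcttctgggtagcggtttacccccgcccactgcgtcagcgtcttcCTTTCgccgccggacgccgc
Rpl3l (chr17:24727766-24727845, plus strand): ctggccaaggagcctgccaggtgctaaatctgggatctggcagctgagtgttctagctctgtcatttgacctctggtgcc

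The RefSeq promoter table held 41 of the 47 members, in windows from 250 bases before to 50 after an annotated start. Of these, 7 members (17.1%) had more than 1 window, as had 15.4% of all genes and 19.7% of the array genes, and a gene counts as holding a motif if any of its windows does. CCGGAAG, searched on both strands, was found in 20 of the 41 (48.8%). It was found in 9.93% of all 27025 genes of the table and in 16.3% of the 9887 genes that are also on the array. In Rpl38 the match lies at -20, in Rps27l at 10, counting the start as 1, and in Rps6 at -91, outside the stretch printed. A pyrimidine start, defined as a C followed by 4 bases that are each C or T on the gene's strand and beginning within 5 bases of the annotated start, was found in 20 members (48.8%), against 21.2% of all genes and 23.4% of array genes. The YY1-like motif AAGATGGC was in 4 members (9.76%, against 3.19% of all genes and 4.39% of array genes). The E-box CACGTG was also in 4 (9.76%, against 8.09% of all genes and 10.8% of array genes). Both were searched on both strands. The ETS motif ends in the letters with which the YY1-like motif begins, so the motifs can overlap. A match is a run of letters and not evidence of binding, and base composition was not matched.

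On every array the ribosomal protein genes lay near the top of the scale. The median of the 47 genes was 12.64 on the remodeling Ets2-expressing array, 12.78 on the remodeling Ets2-deficient array, 12.73 on the tumor Ets2-expressing array and 12.84 on the tumor Ets2-deficient array. The medians over all probe sets were 6.17, 5.98, 6.22 and 6.30 in the same order. Between 40 and 42 of the 47 genes were at or above their array's median. Genes that were dim on every array included Rpl39, of the peptide exit port, at 3.92 to 4.09, and Rps27, at 4.50 to 4.97. Also dim were Rps4l at 4.02 to 4.30 and Rpl3l at 3.87 to 4.29. The 25th percentiles of the arrays were 4.27 to 4.32, and Rps27 lay above them on every array. A low value belongs to the probe set, so it does not show that Rpl39 or Rps27, which are core ribosomal proteins, were scarce.

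**Figure D1:**
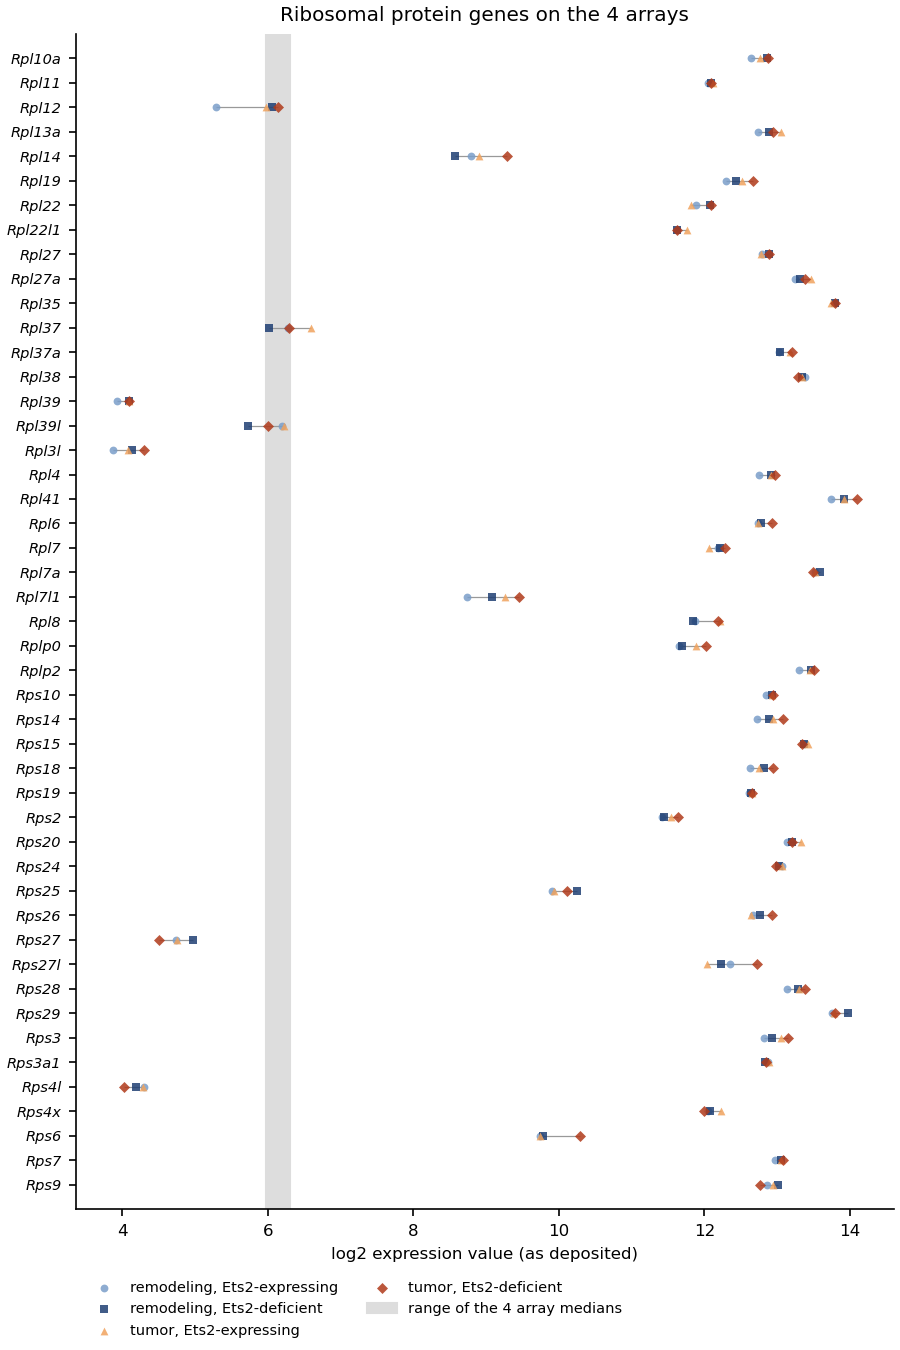
Log2 expression values of the 47 ribosomal protein genes (rows: large subunit, stalk, small subunit) on the 4 arrays, 1 symbol per array, with a line from the lowest to the highest value; the grey band spans the array medians, 5.98 to 6.30. Most genes sit above 11 with symbols close together, while Rpl12, Rpl37 and Rpl39l lie near the band and Rpl39, Rpl3l, Rps27 and Rps4l below it.

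The members varied little. The distance from the lowest to the highest of the 4 values had a median of 0.23 on the log2 scale, and it stayed under 1.5-fold for 43 of 47 genes (91.5%) and under 2-fold for all 47. Rps19 (12.62, 12.64, 12.66 and 12.66, in the order of arrays given above), mutated in Diamond-Blackfan anemia, spanned 0.046. Rpl11 (12.05, 12.09, 12.12 and 12.09), which carries 5S ribosomal RNA into the large subunit and binds Mdm2, spanned 0.063. Among the 7473 genes that were at or above the median on at least 1 array, the median range was 0.63 and 45.0% stayed under 1.5-fold. Bright genes as a whole varied less: among the 889 genes above the 95th percentile on at least 1 array, the median range was 0.37 and 79.5% stayed under 1.5-fold, beside 0.21 and 35 of 36 (97.2%) for the members there. Near the top of the scale differences are small for genes at large, and how far the scale itself was compressed there was not tested.

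The question of the first comparison is whether gene expression in tumor macrophages differs with Ets2. The Ets2 probe set itself read 13.24, 12.97, 12.77 and 12.67, so it was bright on both arrays labelled Ets2-deficient and does not check the labels. In the tumor Ets2 comparison (deficient minus expressing), the median difference of the 47 ribosomal protein genes was 0.06 (SD over genes 0.20), with 28 above 0, 17 below and 2 at 0. Over all 12393 genes the median was 0.00 (SD 0.42). None of the 42 members bright in this comparison, meaning those that reached the median of the brighter of both arrays, was past 2-fold. Of the 7225 bright genes at large, 2.23% were higher and 0.761% lower by at least 2-fold. Rps27l was the 1 member (2.38%) higher by at least 1.5-fold, against 9.27% of bright genes, and 0 were lower, against 5.99%.

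Rps27l encodes a close paralog of the small subunit protein Rps27, and it is known as a target of p53. It read 12.36 and 12.23 in remodeling macrophages, without and with the Ets2 deletion, and 12.03 and 12.73 in tumor macrophages. It was thus lowest on the tumor Ets2-expressing array and highest on the tumor Ets2-deficient array, a difference of 0.70 or 1.62-fold. Its other probe sets read 11.33, 11.16, 11.00 and 11.68, and 11.82, 11.74, 11.60 and 12.16. All 3 ranked the arrays in the same order, and their tumor differences of 0.70, 0.69 and 0.56 had an SD of 0.076. They are annotated to 1 gene, were read on the same RNA and are not replicates of the comparison. Only the brightest of them stays when _x_at and _s_at probe sets are left out, with its tumor difference of 0.70. The tumor difference was 0.61 to 0.75 over the scalings of the arrays tried.

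Rps6, the small subunit protein phosphorylated by S6 kinase downstream of mTOR, came next. Its bright probe set read 9.74, 9.78, 9.75 and 10.30, level on the other 3 arrays and highest on the tumor Ets2-deficient array, by 0.55 over the tumor Ets2-expressing array. A dim probe set of Rps6 read 4.74, 5.11, 5.56 and 5.98. Rpl14, of the large subunit, has 1 probe set and read 8.79, 8.58, 8.91 and 9.28, also highest on the tumor Ets2-deficient array, with a tumor difference of 0.38. Rps26, of the small subunit, at 12.66, 12.77, 12.64 and 12.94, differed by 0.30.

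Rpl22, a large subunit protein not essential for translation, showed how far probe sets can part. Its brighter probe set gave a tumor difference of 0.28 and its other one -0.51 (SD 0.56, the widest of the 19 members with at least 2 bright probe sets). The median SD of those members was 0.10 in the tumor Ets2 comparison, beside 0.22 over 2401 genes. The lowest tumor differences were those of Rpl37 (6.28, 6.01, 6.59 and 6.29; -0.30), Rps4l (-0.26), Rps27 (-0.25), Rps4x (highest on the tumor Ets2-expressing array, at 12.23; -0.23) and Rpl39l (-0.22). Of these 5, Rps4x is the 1 far above the array medians.

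**Figure D2:**
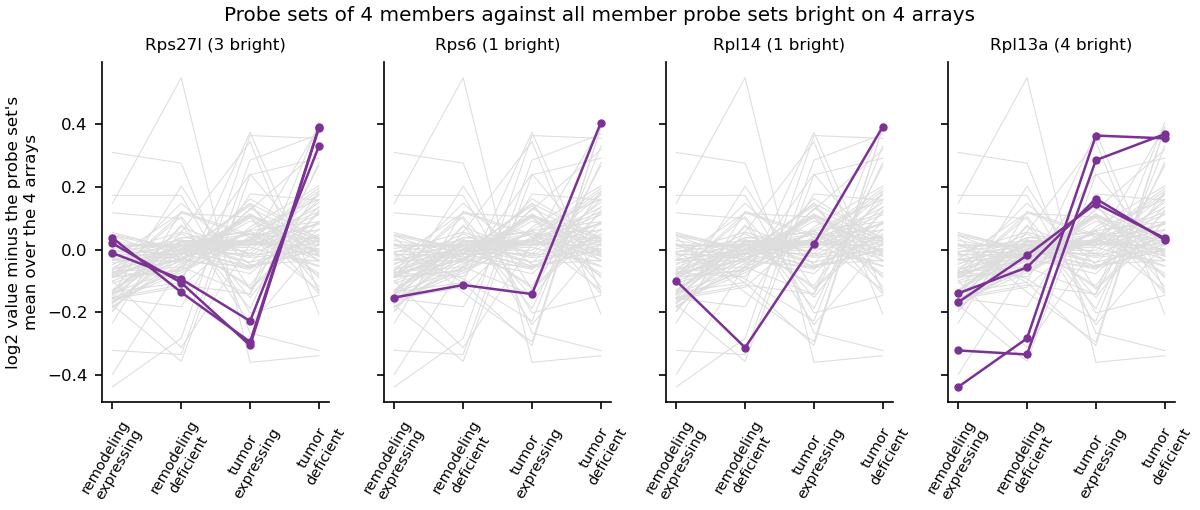
Log2 value minus the probe set's own mean over the 4 arrays, for all member probe sets at or above the median on 4 arrays (grey lines) and for those of Rps27l, Rps6, Rpl14 and Rpl13a (purple lines, 1 panel each). The 3 lines of Rps27l dip at the tumor Ets2-expressing array and peak at the tumor Ets2-deficient array, Rps6 and Rpl14 peak there with 1 bright probe set each, and the 4 lines of Rpl13a are higher on both tumor arrays by unequal amounts.

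Markers of other cells also differed between the tumor arrays. Of 12 mammary epithelium markers, 8 were higher on the tumor Ets2-deficient array by at least 1.5-fold. Their summed log2 level was 63.1, 57.0, 93.5 and 108.0 in the order of arrays, and none was listed at 0. The sum of the 7 neutrophil markers was 55.2, 52.6, 50.9 and 57.7. That of the 13 macrophage markers was 141.7, 143.9, 145.5 and 145.2, with 12 of 13 at or above the median on each array. This sum was lowest on the remodeling Ets2-expressing array largely through Cx3cr1, which read 6.77, 8.99, 9.53 and 10.19. Compared with that array, the median marker differed by -0.05 on the remodeling Ets2-deficient array, with 6 markers higher and 7 lower. On the tumor Ets2-expressing array it differed by -0.04, also with 6 higher and 7 lower. The part of these other cells in the values of Rps27l, Rps6 and Rpl14 was not tested. In sorted bulk cells, more cells of a type and more RNA per cell cannot be told apart.

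In the remodeling Ets2 comparison (deficient minus expressing), the median of the 47 genes was 0.07 (SD 0.18), with 35 above 0 and 12 below. Over all genes it was 0.04 (SD 0.52). Of the 43 bright members 0 were past 2-fold, where 1.31% of 7095 bright genes were higher and 5.17% lower. Rpl12, of the large subunit, was the 1 member (2.33%) higher by at least 1.5-fold, against 6.53% of bright genes, and 0 were lower, against 9.73%. Its values of 5.29, 6.06, 5.97 and 6.14 lie around the array medians, with the remodeling Ets2-expressing array low. Rpl12 was counted only because the array where it is higher just reached its median of 5.98, and with the limit at the 75th percentile the count was 0, so nothing is read from it. Rpl7l1 (8.74, 9.09, 9.26 and 9.45), which despite its name is a ribosome assembly factor related to Rpl7, differed by 0.35, but its second bright probe set by -0.02. Rps25 (9.91, 10.26, 9.93 and 10.12), a small subunit protein used by some viral internal ribosome entry sites, differed by 0.35. The lowest was Rpl39l (6.19, 5.72, 6.23 and 6.01), the paralog of Rpl39 known from the male germ line, at -0.46. Rps27l stood at -0.13, and at 0.07 when each array was centred on its median, so its direction in remodeling macrophages depends on the scaling.

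Markers of other cells differed between the remodeling arrays as well. Of 9 fibroblast markers, 8 were lower on the Ets2-deficient array by at least 2-fold, and the summed log2 level of the list was 91.2, 74.7, 81.8 and 82.4 in the order of arrays. Of 6 mast cell markers, 4 were lower by at least 2-fold, with sums of 42.4, 31.0, 37.5 and 35.3. Of 5 measured B cell markers, 3 were higher by at least 1.5-fold, with sums of 34.7, 38.3, 39.95 and 38.5. None was listed at 0, and the part of these cells in the values of Rpl12, Rps25 and Rpl39l was not tested.

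The tumor and remodeling Ets2 comparisons share no array. Over the 47 members the differences had a Pearson correlation of 0.22 and a Spearman correlation of 0.34, and 34 members had the same sign in both, 25 above and 9 below 0. Without Rps27l the Pearson correlation was 0.35. These are descriptions across genes that share the array, the probe design and the scaling. Over 6849 bright genes the Pearson correlation was 0.065 and the Spearman correlation 0.10, and 3584 had the same sign in both. Counts of the same sign depend on where 0 lies, and so on the scaling. With arrays centred on their medians, 21 members were above 0 and 26 below in the tumor Ets2 comparison. In the remodeling Ets2 comparison 44 were then above 0 and 3 below. The count of 34 is therefore not read as particular to the members. The tumor difference minus the remodeling difference had a median of -0.04, with 17 members above 0 and 30 below. It was highest for Rps27l (0.82), Rpl14 (0.59) and Rps6 (0.51), and lowest for Rpl12 (-0.60), Rps27 (-0.49) and Rps9 (-0.32).

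**Figure D3:**
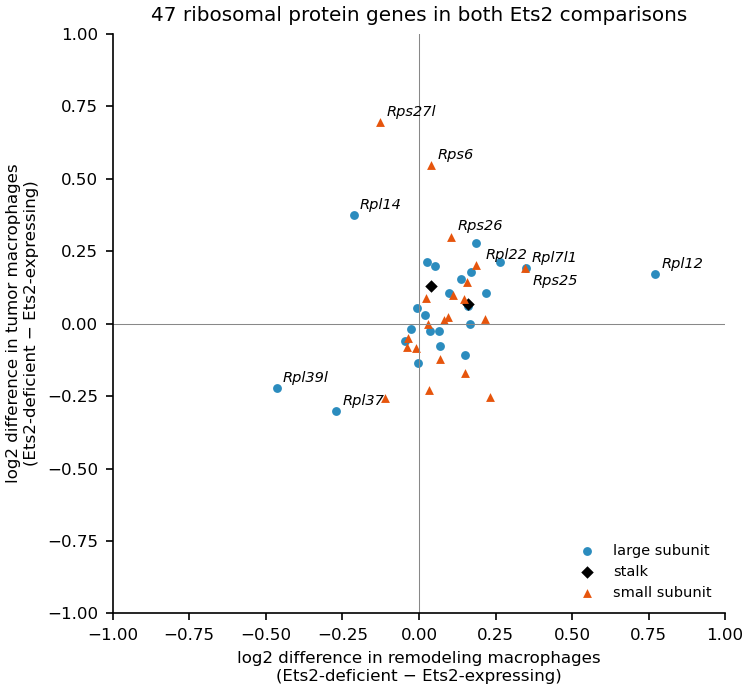
Log2 difference (Ets2-deficient minus Ets2-expressing) of each of the 47 members in remodeling macrophages (x axis) and tumor macrophages (y axis), by subunit. Most members cluster near 0 on both axes, with Rps27l (0.70), Rps6 (0.55) and Rpl14 (0.38) set apart on the tumor axis and Rpl12 (0.77) and Rpl39l (-0.46) on the remodeling axis.

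Members with and without the ETS motif had similar medians in the Ets2 comparisons, with no test. In tumor macrophages the 20 genes with CCGGAAG had a median of 0.06 (range -0.30 to 0.70) and the 21 without it 0.06 (range -0.25 to 0.38). In remodeling macrophages the medians were 0.06 and 0.11. For the pyrimidine start, the tumor medians were 0.03 with it and 0.09 without it, and the remodeling medians 0.08 and 0.09. Rps27l and Rps6, with the largest tumor differences, have both features, Rps27l at the first of its annotated starts and neither in the window of the second, as do Rpl38 (13.38, 13.34, 13.35 and 13.29) and Rplp2 (13.30, 13.46, 13.45 and 13.52), which differed by -0.06 and 0.07. Rpl14 has the pyrimidine start and no CCGGAAG in the window.

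The other comparisons set tumor against remodeling macrophages. Of the 12 mammary epithelium markers, 10 were higher by at least 2-fold on the tumor array of the Ets2-expressing pair. In the Ets2-deficient pair 12 were, and 0 were lower in either pair. The part of epithelial cells in the members' differences between tumor and remodeling was not tested. On the Ets2-expressing arrays the median of the 47 genes was 0.11 (SD 0.16), with 36 above 0, 9 below and 2 at 0, beside 0.08 over all genes (SD 0.62). Of 42 bright members 0 were past 2-fold, where 6.18% of 7253 bright genes were higher and 5.2% lower. Also 0 were past 1.5-fold, where 16.9% were higher and 13% lower. The highest member was Rpl12 at 0.68, which stayed below both array medians. After it came Rpl7l1 (0.53, with its second probe set at -0.36) and Rpl8 (11.88, 11.85, 12.21 and 12.19; 0.33). Rpl8, a large subunit protein near the peptidyl transferase centre, was higher on both tumor arrays than on both remodeling arrays, with no overlap under any of the scalings tried, although its Ets2-deficient difference of 0.34 came down to 0.02 with arrays centred on their medians. Rplp0, the base of the stalk that recruits elongation factors, read 11.66, 11.70, 11.89 and 12.02. Its groups did not overlap on the deposited scale or after quantile normalization, but they overlapped under both centrings. Other members, among them Rpl13a, Rpl14 and Rpl7l1, were also higher on both tumor arrays on the deposited scale. The share of all genes without overlap was not counted, so the lack of overlap is not read as particular to Rpl8 or Rplp0. Rps27l was the lowest at -0.33.

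Rpl13a, a large subunit protein that in myeloid cells can leave the ribosome and repress translation of inflammatory messenger RNAs, was represented by a probe set at 12.74, 12.89, 13.06 and 12.95. All 4 of its probe sets were higher on the tumor Ets2-expressing than on the remodeling Ets2-expressing array, but by amounts from 0.30 to 0.80 (SD 0.24). The 2 larger differences, 0.80 and 0.61, came from the dimmer probe sets, with values from 10.0 to 10.8. Rpl41, whose product is a very short peptide, had probe sets in both directions, from -0.58 to 0.42.

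On the arrays labelled Ets2-deficient the tumor minus remodeling median was 0.06 (SD 0.20), with 33 above 0, 10 below and 4 at 0, beside 0.01 over all genes (SD 0.66). Of 40 bright members 0 were past 2-fold, where 7.61% of 7203 bright genes were higher and 1.61% lower. Rpl14 was the 1 member (2.5%) higher by at least 1.5-fold, at 0.71 or 1.63-fold, against 15.9% of bright genes, and 0 were lower, against 7.76%. Rps6 (0.52), Rps27l (0.50), Rpl7l1 (0.37) and Rpl8 (0.34) followed, and Rps27 (-0.46), Rps9 (-0.25) and Rps29 (13.76, 13.98, 13.78 and 13.80; -0.18) were lowest. Centring each array on its median lowered these values, to 0.39 for Rpl14, 0.20 for Rps6 and 0.18 for Rps27l, and then 0 members were past 1.5-fold. After quantile normalization the 3 values were 0.67, 0.53 and 0.48, and 1 member was past 1.5-fold. These counts take only the brightest probe set of each gene. With every member probe set by itself, 4 of 79 bright ones were higher and 2 lower by at least 1.5-fold. Besides that of Rpl14, these were probe sets of Rpl13a (0.70 and 0.64) and of Rpl41 (0.65, -0.60 and -0.89). Those of Rpl41 disagreed most, with an SD of 0.70.

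The small medians depend on how the arrays are scaled. Centring each array on its median moved the median of all genes to -0.08 (tumor Ets2), 0.23 (remodeling Ets2), 0.03 (tumor minus remodeling, Ets2-expressing) and -0.31 (Ets2-deficient), and the members moved with it, to -0.03, 0.26, 0.07 and -0.26. Centring subtracts 1 constant per array, so it cannot change the members' median minus that of all genes, which was 0.06, 0.03, 0.04 and 0.04. After quantile normalization it was 0.03, 0.00, 0.05 and 0.04. Relative to genes at large, 26 to 30 of the 47 members were above the median of all genes in each comparison on the deposited scale.

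Mitochondrial ribosomal proteins, which build the ribosome inside mitochondria, had larger median differences on the same arrays. Their 74 genes had medians of 0.32 (tumor Ets2), 0.18 (remodeling Ets2), 0.26 (tumor minus remodeling, Ets2-expressing) and 0.45 (Ets2-deficient). Above 0 were 61, 59, 58 and 69 genes (82.4, 79.7, 78.4 and 93.2%), beside 49.8, 54.2, 56.6 and 51.0% of all genes. Past 1.5-fold in either direction were 11.1, 7.04, 21.1 and 25% of the bright ones. The shares of all bright genes were 15.3, 16.3, 29.8 and 23.7%. All 4 medians stayed above 0 under each scaling tried, the lowest being 0.13 for the Ets2-deficient arrays centred on their medians. Their array medians were 8.66, 8.91, 8.98 and 9.30, below those of the cytosolic members and lower on the scale, where differences are wider. Whether both families differ from each other was not tested.

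**Figure D4:**
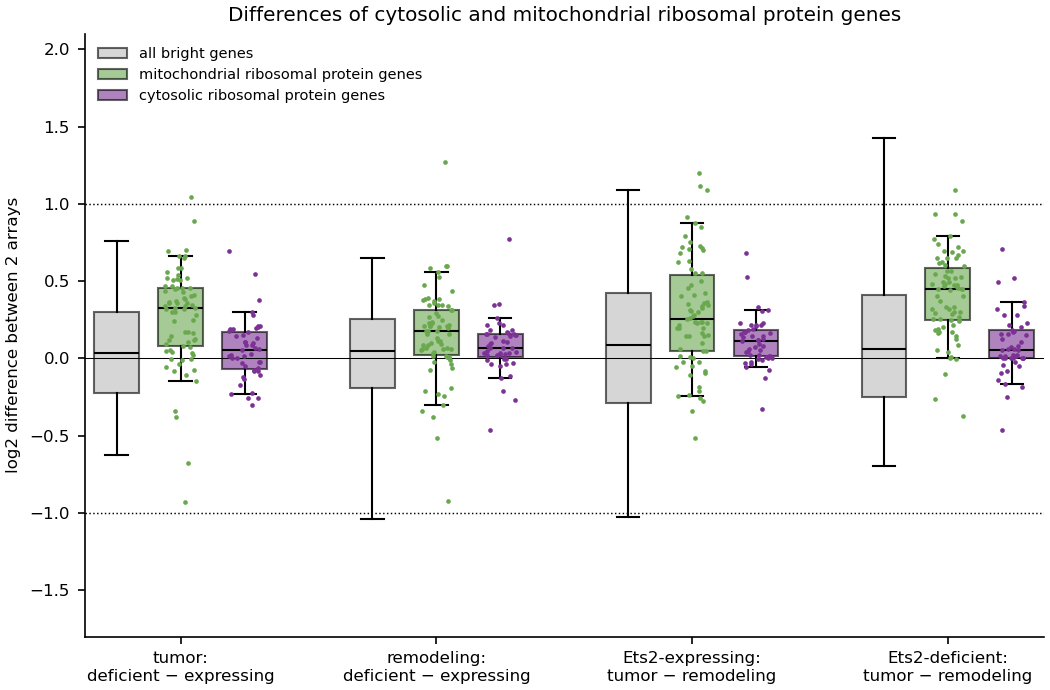
Log2 differences between 2 arrays in the 4 comparisons, for all bright genes (grey), 74 mitochondrial (green) and 47 cytosolic (purple) ribosomal protein genes; boxes span the 25th to 75th percentile with the median as a line, whiskers the 5th to 95th percentile, points are single genes and dotted lines mark 2-fold. The cytosolic members sit closest around 0, with medians of 0.06 to 0.11, and no cytosolic point crosses a dotted line.

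Other bright parts of the translation system also differed little between arrays. Rpsa, a small subunit protein outside the symbol pattern, read 12.84, 13.14, 13.19 and 13.36, and Fau, the precursor of Rps30, 13.05, 13.14, 13.30 and 13.10. Of 6 measured elongation factors, Eef1a1, which brings transfer RNA to the ribosome, was at 13.23, 13.30, 13.40 and 13.30, and 0 were past 1.5-fold in any comparison. Of 11 other messenger RNAs with a 5' pyrimidine tract, 0 were past 1.5-fold, and their medians were -0.04, 0.06, 0.09 and -0.05 in the order tumor Ets2, remodeling Ets2, Ets2-expressing and Ets2-deficient. Pabpc1, the poly(A)-binding protein, was among them at 11.88, 12.10, 12.03 and 12.24. In the same order of comparisons 15.3, 16.3, 29.8 and 23.7% of all bright genes were past 1.5-fold in either direction. Among genes at or above the 95th percentile the shares were 3.04, 4.70, 8.52 and 7.33%. Most genes of both lists lie high on the scale, so their counts of 0 are not read as particular to them. Of 22 bright initiation factors 2 (9.09%, against 29.8% of all bright genes in either direction) were past 1.5-fold, both higher on the Ets2-expressing array from tumor than on that from remodeling glands: Eif2b2 (0.84) and Eif2b4 (0.64), subunits of the exchange factor for eIF2.

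Few factors that assemble ribosomes passed 1.5-fold in any comparison. The counts are small and the 4 comparisons draw on the same 4 arrays. Their distance from the shares of all bright genes is therefore not read as a result. The 38 measured genes of the assembly and nucleolar list include Tbc1d1, which was matched in place of the listed Nob1 and is not an assembly factor. Its differences were -0.17, 0.33, 0.06 and -0.44, all under 1.5-fold, and the list's counts and medians include it. Of these 38 genes, 4 of 37 bright ones (10.8%, against 15.3% of all bright genes) were past 1.5-fold in the tumor Ets2 comparison. Nop2 (0.99), a methyltransferase of ribosomal RNA, Bysl (0.87), needed for the small subunit, and Bop1 (0.75), needed for the large subunit, were higher on the Ets2-deficient array. Nop2 read 7.65, 7.86, 7.10 and 8.09, and Bop1 7.73, 7.29, 7.28 and 8.03. Rrp15 was lower (5.46, 4.94, 6.49 and 5.43; -1.06), and it was counted only through the tumor Ets2-expressing array, the 1 array where it reached the median. In remodeling macrophages 2 of 37 (5.41%, against 16.3%) were past 1.5-fold, both lower on the Ets2-deficient array, Utp4 (-0.78) and Wdr12 (-0.70). Tumor minus remodeling gave 2 higher and 3 lower on the Ets2-expressing arrays (13.9%, against 29.8%). On the Ets2-deficient arrays 5 were higher (13.5%, against 23.7%), with Nhp2 (0.91), Bop1 (0.74), Pes1 (0.70) and Bysl (0.64) leading. The list's median was 0.08, -0.06, 0.05 and 0.24, and each but the tumor Ets2 median changed sign under at least 1 scaling. The tumor Ets2 median of 0.08 was about as large as the shift of all genes, -0.08, under median centring.

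Of the 12 genes of RNA polymerase I and its factors, which transcribe ribosomal RNA, 4 of 9 bright ones were past 1.5-fold between the Ets2-expressing arrays of tumor and remodeling (44.4%, against 29.8% of all bright genes). Polr1e (8.47, 8.99, 9.54 and 9.15; 1.07), Ttf1 (6.14, 6.52, 7.15 and 6.46; 1.01) and Taf1d (0.66) were higher in tumor and Rrn3 (-0.60) was lower. Ttf1 lay below the median on the remodeling Ets2-expressing array. In the remodeling Ets2 comparison 1 of 9 (11.1%, against 16.3%), Taf1d (0.68), was past 1.5-fold. Between tumor and remodeling on the Ets2-deficient arrays 0 of 10 were, against 23.7%. Ttf1, which terminates transcription of ribosomal RNA, was the 1 of 10 (10%, against 15.3%) past 1.5-fold in the tumor Ets2 comparison. It was lower on the Ets2-deficient array (-0.69). With 9 or 10 bright genes per comparison, nothing is read from the shares of this list. Of 10 bright mTOR and Myc control genes, 0, 2, 4 and 1 were past 1.5-fold in the tumor Ets2, remodeling Ets2, Ets2-expressing and Ets2-deficient comparisons. The shares were 0, 20, 40 and 10%, against 15.3, 16.3, 29.8 and 23.7% of all bright genes, and with so few genes nothing is read from them. Mtor (6.86, 7.52, 7.58 and 7.11) was higher by 0.65 in the remodeling Ets2 comparison. Eif4ebp1 (10.23, 10.12, 10.34 and 10.76), the translation repressor that mTOR inactivates, was higher by 0.64 in tumor minus remodeling on the Ets2-deficient arrays. Mdm2, the p53 ligase that ribosomal proteins bind, read 11.24, 10.78, 10.29 and 10.48, lower by 0.96 on the log2 scale in tumor than in remodeling macrophages on the Ets2-expressing arrays. Myc was below the median on every array, at 4.37 to 5.15. The 10 cell cycle genes summed to 80.2, 87.6, 83.3 and 88.1, higher on both Ets2-deficient arrays, and their part in the assembly genes was not tested.

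Control probe sets differed too. The 3' minus 5' difference of Actb, wider where amplified RNA is shorter, was 2.72, 2.96, 3.30 and 3.54, so it was widest on the tumor arrays, as was that of Gapdh at 1.61, 1.80, 2.45 and 2.27, while that of Tfrc was narrower there. Their part in the members' differences was not tested.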

How the data were processed

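Macrophage RNA from 4 groups was amplified and hybridised to 1 Affymetrix array each. The deposited values are log2 expression values. GCOS and RMA are the tools listed in the submitters' processing notes, without a version, a role or an order; 0 per-sample columns were left unmapped. The values were used without further scaling, in Python 3.11.15 with pandas 2.3.3 and numpy 2.4.6. RMA combines the probes of a set into 1 log2 value, and it narrows differences near background. Precision is limited by the number of arrays.

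Probe sets were tied to genes by the array annotation, keeping those naming exactly 1 gene. Genes were counted past 2-fold or 1.5-fold if the brighter of the compared arrays reached its own median. No test was run, since each group has 1 array; an additive model of tissue and Ets2 label would take its only residual from the difference of the Ets2 differences. The members and gene lists were chosen with earlier results of these data known. The 2-fold rule was run in 1 comparison on simulated data, with shifts set beyond its limit and little noise. That run checks the counting and not the precision of the arrays. Named genes were the 5 highest and 5 lowest members per comparison and of the difference of the Ets2 differences, members past 2-fold, members whose probe sets disagree most, paralogs, stalk and 5S particle genes, Rps6, Ets2, and up to 4 genes per pathway list past 1.5-fold. Rps19, Rpsa, Fau, Eef1a1, Pabpc1, Rpl39, and Myc were chosen after their values were seen. Tbc1d1 was named for how it entered its list. Promoters came from RefSeq (GRCm38.p6), matched by symbol. Protein sequences were not analysed here. The alternatives were 3 scalings, other rules for the probe set of a gene, and other filters on dim probe sets.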

Additional observations from a re-analysis of the deposited data

Results flagged for a closer look

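Rps27l differed in opposite directions with the Ets2 label in tumor (0.70) and remodeling (-0.13) macrophages, a difference between the settings of 0.82 on the log2 scale. With 1 array per group this difference was not tested, and the remodeling value turned to 0.07 when arrays were centred on their medians or on the hybridization controls, while the tumor value stayed above 0.

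Probe sets that name several genes, at least 1 of them with a matching symbol, were not members, yet 86 of these 102 were at or above the array median on all 4 arrays. Their median differences were 0.00 (tumor Ets2), 0.03 (remodeling Ets2), 0.03 (tumor minus remodeling, Ets2-expressing) and 0.01 (Ets2-deficient). Past 2-fold were 1 of 87 bright ones, higher, in the tumor Ets2 comparison and 2 of 88, lower, between tumor and remodeling on the Ets2-expressing arrays. Which of their genes gave the signal cannot be told apart.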

How the results depend on the processing

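Of 182 recomputed values, 24 main values and 14 values of single genes moved by more than the spread between probe sets of a gene, or, for counts, by more than 1.5 times, and counts past 2-fold changed only when probe sets naming several genes were added. The median over members was 0.26 in the remodeling Ets2 comparison with arrays centred on their medians and 0.27 with centring on the hybridization controls. Tumor minus remodeling on the Ets2-deficient arrays gave -0.26 and -0.17 under these settings, and the difference of the Ets2 differences -0.32 and -0.19. Medians of all genes moved likewise. Members past 1.5-fold in the remodeling Ets2 comparison went from 1 to 0 when the brighter array had to reach its 75th or 95th percentile. In the tumor Ets2 comparison they went from 1 to 2 with hybridization control centring or with every probe set by itself, to 3 with probe sets naming several genes, and to 0 without Rps27l. In tumor minus remodeling on the Ets2-deficient arrays they went from 1 to 0 under both centrings and at the 95th percentile. They went to 2 with the mean over probe sets or without _x_at and _s_at probe sets, and to 3 with probe sets naming several genes. With every probe set by itself they went to 6, of which 4 were higher and 2 lower. On the Ets2-expressing arrays they went from 0 to 1 with no filter on dim probe sets, and to 2 with every probe set by itself or with probe sets naming several genes. Past 2-fold, adding probe sets naming several genes gave 1 in the tumor Ets2 comparison and 2 between tumor and remodeling on the Ets2-expressing arrays. Adding those probe sets, the 95th percentile and leaving out Rps27l were chosen after seeing the data. No paired analysis was possible because each group has 1 array. Background was not measured here, and values near or below the array medians are less certain, which limits Rpl12, Rpl37, Rpl39l, Rpl39, Rps27, Rps4l and Rpl3l.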
